A study of Mus musculus with 18 samples.

Results

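The response of C2C12 myotubes to dexamethasone (Dex) was compared between 6 h and 24 h, gene by gene, to find which genes answered early, late, at both times or in opposite directions. Myotubes are multinucleate muscle fibre-like cells, and C2C12 is an established mouse myoblast line that fuses into them. All 18 arrays of the series entered the comparison. They were 4 arrays of myotubes given 0.01% ethanol by volume, the vehicle, and 4 given 1 uM Dex for 6 h, and 5 arrays of each treatment for 24 h. The medium of every group, controls included, was DMEM with 2% horse serum. RNA was hybridised to Illumina mouse whole-genome bead arrays. The Dex effect is the mean log2 intensity with Dex minus that with ethanol at the same time, and the change is the effect at 24 h minus the effect at 6 h.

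Dex is a synthetic glucocorticoid. It binds the glucocorticoid receptor, a nuclear receptor that then moves into the nucleus, binds DNA at glucocorticoid response elements and raises or lowers the transcription of nearby genes. Early genes can be direct targets, and the products of some of these are themselves regulators of further genes. In skeletal muscle glucocorticoids are known for promoting protein breakdown, opposing insulin and damping inflammation. The title of the series names target genes of this receptor in C2C12 myotubes as its subject.

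The brightest probe stood for each of 19057 genes, and intensities are linear values as deposited. The median of an array was 99.8 to 100.4 at 6 h and 85.2 to 86.8 at 24 h, so levels are set against each other only within a time, and a constant difference in scale cancels in the change. Of 9 measured myotube markers, 9 read at least 1.5 times the array median in each of the 4 groups. None of the 5 adipocyte, 4 osteoblast and 4 macrophage markers did, and 2 of 4 markers of proliferating myoblasts did, which were Top2a and Cdk1. Because these are bulk samples, less RNA per cell and fewer cells of a kind cannot be told apart. Whether replicates were separate cultures is not in the labels, and the p-values then rest on a spread between samples that may be technical.

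At an adjusted p under 0.05 (limma, Benjamini-Hochberg over all genes, here "called"), the Dex effect was called for 850 genes at 6 h (4.46% of those tested) and for 1694 at 24 h (8.89%). At 6 h 472 genes were called higher (2.48%) and 378 lower (1.98%), and at 24 h 852 higher (4.47%) and 842 lower (4.42%). The change was called for 232 genes (1.22%), of which 114 changed upward (0.598%) and 118 downward (0.619%). Of the 232, 128 (55.2%) changed at least 1.5-fold and 33 (14.2%) at least 2-fold. Leaving out ethanol replicate 1 at 6 h gave 372 called changes, and leaving out Dex replicate 4 at 6 h gave 352. These counts thus depend on single arrays, and the reason was not tested.

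The 6 h and 24 h effects share no arrays. Of the 850 genes called at 6 h, 739 (86.9%) had the same sign at 24 h, 427 (50.2%) were also called there with that sign and 10 (1.18%) were called with the opposite sign. Of the 1694 genes called at 24 h, 1311 (77.4%) had the same sign at 6 h and the 427 made up 25.2%. Among genes called at neither time 53.6% had the same sign at both. Across genes, which are not independent replicates, Pearson's r between the 2 effects was 0.561 over 19057 genes and 0.899 over the 437 genes called at both times.

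The genes were sorted by these calls. A growing effect was called at both times in the same direction and was larger at 24 h, with a called change, and 21 genes had one. A fading effect was smaller at 24 h, and 9 genes had one. A transient effect was called at 6 h and not at 24 h (60 genes), and a delayed effect at 24 h and not at 6 h (120 genes), both with a called change. Direction-switching genes were called at both times with opposite signs (10 genes). Sustained genes (322) were called at both times in the same direction with no called change, and the 95% confidence interval of their change lay within 1.5-fold either way. A further 12 genes had a called change with neither effect called. The largest groups were those the change did not resolve, with 1137 genes called at 24 h only and 353 at 6 h only without a called change. The change of another 75 genes called at both times had too wide an interval to sort.

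**Figure D1:**
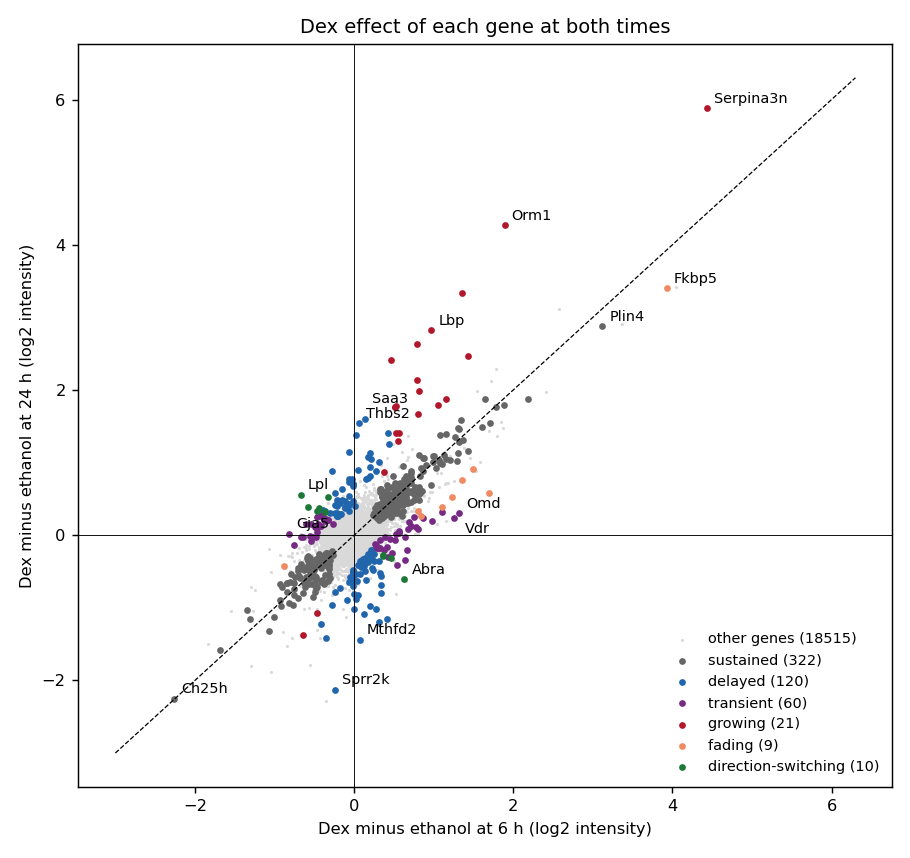
Dex effect at 6 h (x axis) against the Dex effect at 24 h (y axis), both as log2 intensity with Dex minus ethanol, with 1 point for each of the 19057 genes. Colours mark the classes and the dashed line marks equal effects. The 322 sustained genes lie along the line, the 120 delayed genes near an effect of 0 at 6 h, and the 10 direction-switching genes in the quadrants of opposite sign.

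The growing effects were 19 rises and 2 falls. Orm1, the gene of the acute-phase reactant orosomucoid, read 97.2, 88.8, 94.3 and 89.7 with ethanol and 344, 386, 318 and 322 with Dex at 6 h. At 24 h it read 81.1, 78.1, 83.5, 85.9 and 75.5 with ethanol and 1369, 2047, 1341, 1557 and 1553 with Dex. Every Dex array lay above every ethanol array at both times, and the ethanol arrays were near the array median, where a probe is not shown to be above background. The effect went from 1.89 (SE 0.10) to 4.27 (SE 0.09), a change of 2.38 (SE 0.14, limma adjusted p = 5.01e-10), the largest upward change of any gene. Lbp, the lipopolysaccharide-binding protein of serum, read 122, 114, 91.1 and 103 with ethanol and 218, 238, 228 and 160.0 with Dex at 6 h. The 24 h arrays of Lbp gave 94.6, 92.5, 100.3, 95.7 and 86.5 with ethanol and 600.1, 761, 558, 760.0 and 660.3 with Dex. Its groups were apart at both times, and its effect grew from 0.97 to 2.82 (change 1.85, SE 0.16, limma adjusted p = 4.54e-07).

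Amy2a5, an amylase gene, had the second largest upward change, from 1.36 to 3.34 (SE 0.17), with Dex arrays at 24 h of 1718, 835, 1577, 898 and 700.1. These Dex arrays differ more from each other than those of Orm1, and the change of neither of the other 2 probes of Amy2a5 was called. The uncharacterised gene 4930486L24Rik went from 0.46 to 2.41 (SE 0.09). Col4a2, a chain of basement membrane collagen, read 1561, 1353, 1439 and 1822 with ethanol and 2400.2, 2898, 2988 and 2496 with Dex at 6 h. At 24 h Col4a2 read 446, 511, 527, 497 and 420.1 with ethanol and 2062, 1705, 1768, 1932 and 2008 with Dex. The groups did not overlap at either time, and the effect grew from 0.81 to 1.98 (change 1.17, SE 0.14, limma adjusted p = 4.02e-05).

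The remaining 14 growing rises are named to complete the class, after their values were seen. The serine protease inhibitor gene Serpina3n went from 4.43 to 5.88, the secreted glutathione peroxidase gene Gpx3 from 0.79 to 2.63, and Selenop, the selenium transport protein of plasma, from 0.79 to 2.14. The kininogen gene Kng1 went from 0.51 to 1.77 and Col4a1, which encodes the partner chain of Col4a2, from 1.16 to 1.88. The others were Dpep1, Ccdc3, Ifi207, Ddc, Klk1b27, Klk1b21, Tm6sf1, Npy4r and Rab3d, with effects at 24 h between 0.87 and 2.47. Klk1b21 and Klk1b27 are near-identical kallikrein genes, so a probe may read both, and Orm1, Kng1 and Amy2a5 also have close copies.

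The falls that grew were those of Crabp2, a retinoic acid-binding protein, and Prkg2, a cGMP-dependent kinase. Prkg2 read 4043, 3783, 3600.0 and 3407 with ethanol and 2741, 2959, 2507 and 2591 with Dex at 6 h. The same gene read 2511, 2422, 2082, 2235 and 2043 with ethanol and 965, 1041, 1107, 1179.6 and 1080.5 with Dex at 24 h. All Dex arrays of Prkg2 lay below the ethanol arrays of their time, and the effect went from -0.46 to -1.07 (limma adjusted p of the change = 0.0124). Crabp2 went from -0.64 to -1.37, with an adjusted p of 0.0499 that lies at the threshold. Its call was lost in 11 of 18 fits that each left out 1 array (adjusted p up to 0.0838).

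A fading effect was seen in 8 rises and 1 fall. Fkbp5, whose product binds Hsp90 beside the receptor and which is a textbook target of it, read 259, 305, 264 and 269 with ethanol and 4484, 4056, 3962 and 4217 with Dex at 6 h. At 24 h the readings were 176, 162, 173, 166 and 163 with ethanol and 1574, 2045, 1615, 1871 and 1792 with Dex. It remained one of the strongest rises at 24 h, with an effect that went from 3.93 (SE 0.09) to 3.40 (SE 0.08), a change of -0.53 (limma adjusted p = 0.0261). This call was lost with quantile normalization. Lrrc26, an auxiliary subunit of a potassium channel, read 316, 272, 276 and 293 with ethanol and 989, 794, 1173 and 819 with Dex at 6 h. Its 24 h readings were 84.2, 91, 99.9, 94.3 and 92.1 with ethanol, near the array median, and 158, 127, 137, 159.5 and 112 with Dex. The groups did not overlap at either time, and the effect fell from 1.69 to 0.58 (change -1.11, SE 0.16, limma adjusted p = 0.000463).

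The other fading rises were in Tcf23, a helix-loop-helix transcription factor gene, from 1.10 to 0.39, Abcb1b, a drug efflux pump gene, from 1.23 to 0.52, and the ubiquitin ligase gene Cblb, from 0.80 to 0.34. Map3k6, a kinase of the MAP kinase cascade, went from 1.35 to 0.76 (limma adjusted p of the change = 0.0409), a call lost in 9 of 18 fits that left out 1 array, with adjusted p up to 0.0705. The call of Cblb was lost without Dex replicate 3 at 6 h or ethanol replicate 2 at 24 h (adjusted p up to 0.0541). Bmp8a (1.49 to 0.91) and the metalloproteinase gene Adamts1 (0.84 to 0.26) complete the rises. The fall was in Artn, a growth factor of the GDNF family, from -0.88 to -0.43, with all 24 h arrays under 1.5 times the array median. The class held 18 genes without ethanol replicate 1 at 6 h and 16 without Dex replicate 4 at 6 h.

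The promoter windows of the classes were searched for the palindromic glucocorticoid response element, the half-sites GNACA and TGTNC with any 3 bases between them (N is any base), which reads the same on both strands. Each window runs from 250 bases before to 50 bases after a gene's start in RefSeq (build GRCm38.p6), and 48 of the 65 genes named by rule had one. The element was found in 0.493% of the 15207 measured genes with a window, and in 1 of 15 growing, 1 of 9 fading, 1 of 47 transient, 1 of 94 delayed, 0 of 3 direction-switching and 2 of 255 sustained genes. A match is a string of letters and not a shown binding site, and receptor sites that lie farther away are outside these windows. The lines below show the match, in capitals, with the bases on either side, for a growing, a fading and a pair of sustained genes, since these are the classes of the strongest Dex rises. The sustained pair are Slc10a6, a sodium-dependent steroid sulphate carrier, and Sgk1, a kinase that is a classical target. Serpina3n lies at chr12:104406610-104406662 on the plus strand, Map3k6 at chr4:133240617-133240669 on the plus strand, Slc10a6 at chr5:103629534-103629586 on the minus strand and Sgk1 at chr10:21993682-21993734 on the plus strand.
Serpina3n: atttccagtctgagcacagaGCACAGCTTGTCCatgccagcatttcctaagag
Map3k6: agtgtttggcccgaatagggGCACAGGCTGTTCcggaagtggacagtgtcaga
Slc10a6: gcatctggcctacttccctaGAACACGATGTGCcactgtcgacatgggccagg
Sgk1: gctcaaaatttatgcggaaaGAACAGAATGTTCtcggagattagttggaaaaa

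Transient effects were seen in 60 genes, 32 rises and 28 falls at 6 h, with a median size of 0.49 at 6 h and 0.16 at 24 h on the log2 scale. Vdr, the vitamin D receptor, a nuclear receptor like that of Dex, read 337, 349, 350.1 and 360.3 with ethanol and 764, 897, 799.9 and 889 with Dex at 6 h. By 24 h it read 321, 248, 242, 285 and 229 with ethanol and 236, 392, 302, 329 and 306 with Dex. The 6 h groups were apart by over 2-fold and the 24 h groups overlapped, and the effect went from 1.26 (SE 0.12) to 0.23 (95% interval 0.01 to 0.46), with limma adjusted p = 0.00161 for the change. These values are of the brightest probe, and 2 other Vdr probes also read at least 1.5 times the array median. The brighter of these went from 1.12 to 0.41 (limma adjusted p of the change = 0.00388), which left more of the effect at 24 h. The dimmer had 0.25 and 0.08 (limma adjusted p of the change = 0.69). Per2, a repressor of the circadian clock, read 456, 354, 518 and 472 with ethanol and 654, 667, 755 and 711 with Dex at 6 h. Its 24 h values were 355, 322, 296, 311 and 295 with ethanol and 276, 328, 305, 303 and 350.0 with Dex. Only the 6 h groups of Per2 were apart, and the effect went from 0.64 to -0.02 (change -0.66, SE 0.14, limma adjusted p = 0.0225). Its paralogue Per1 was sustained, at 1.27 and 1.35.

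Omd, the matrix proteoglycan osteomodulin, had the transient rise with the largest change, from 1.32 to 0.30 (limma adjusted p = 0.0152). Its Dex arrays at 6 h read 566, 387, 387 and 265, and all its 24 h arrays lay under 1.5 times the array median. Bmper, a BMP-binding secreted protein, went from 0.54 to -0.41 and the uncharacterised gene 2310002L09Rik from 0.64 to -0.34. Both had negative effects at 24 h that were not called (adjusted p = 0.0698 and 0.0971). In 11 of the 60 transient genes both groups at 24 h read under 1.5 times the array median, where a probe may not register a difference. The part this plays in their class was not tested.

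Among the transient falls were genes of mitochondrial respiration. Ndufb9, a subunit of respiratory complex I, read 1139.5, 1432, 1555 and 1515 with ethanol and 872, 869.6, 862 and 1073 with Dex at 6 h. The 24 h arrays of Ndufb9 read 595, 650.4, 668, 528 and 623 with ethanol and 705, 618, 628, 761 and 694 with Dex. The Dex arrays lay below the ethanol arrays at 6 h and overlapped with them at 24 h, where the effect was 0.15 after -0.61 at 6 h (change 0.77, SE 0.14, limma adjusted p = 0.008). Sdhd, a membrane anchor of succinate dehydrogenase, went from -0.40 to 0.27 (limma adjusted p of the change = 0.0274). The positive effect of Sdhd at 24 h was not called (limma adjusted p = 0.105), and its groups overlapped there. Pik3r3, a regulatory subunit of PI3K, read 1116, 1050.2, 1136 and 1219 with ethanol and 795, 801, 872 and 802 with Dex at 6 h. At 24 h its readings were 598, 701, 659, 688 and 617 with ethanol and 786, 598, 729.7, 694 and 688 with Dex. The groups of Pik3r3 were apart at 6 h and overlapped at 24 h, and the effect went from -0.47 to 0.10 (limma adjusted p of the change = 0.0201). Its other probe had -0.51 and -0.19, and the change of that probe was not called (limma adjusted p = 0.301).

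Stard4, a sterol carrier whose gene is switched on when cells lack sterol, went from -0.54 to 0.16 (limma adjusted p = 0.008). Gja5, the gap junction protein connexin 40, had the transient fall with the largest change, from -0.82 to 0.02. Its 6 h groups overlapped, with Dex replicate 1 inside the ethanol range, its 24 h arrays read between 91.1 and 114, near the array median, and its call was lost in 4 of 18 fits that left out 1 array (ethanol replicates 3 and 4 and Dex replicate 2 at 6 h, and Dex replicate 4 at 24 h, adjusted p up to 0.0637). Ddx3x, an RNA helicase gene, went from -0.44 to 0.28 and Sarnp, a nuclear RNA-binding protein gene, from -0.46 to 0.25. Both had positive effects at 24 h that were not called (limma adjusted p = 0.0853 and 0.18). At 24 h Sarnp read 148.8 to 164.4 with ethanol and 174.7 to 202.6 with Dex. These groups of Sarnp were apart, with Dex higher, while the 24 h groups of Ddx3x overlapped. The call of Sarnp was lost without ethanol replicate 3, ethanol replicate 4 or Dex replicate 2 at 6 h (adjusted p up to 0.0591). The number of transient genes was 102 without ethanol replicate 1 at 6 h and 104 without Dex replicate 4 at 6 h.

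**Figure D2:**
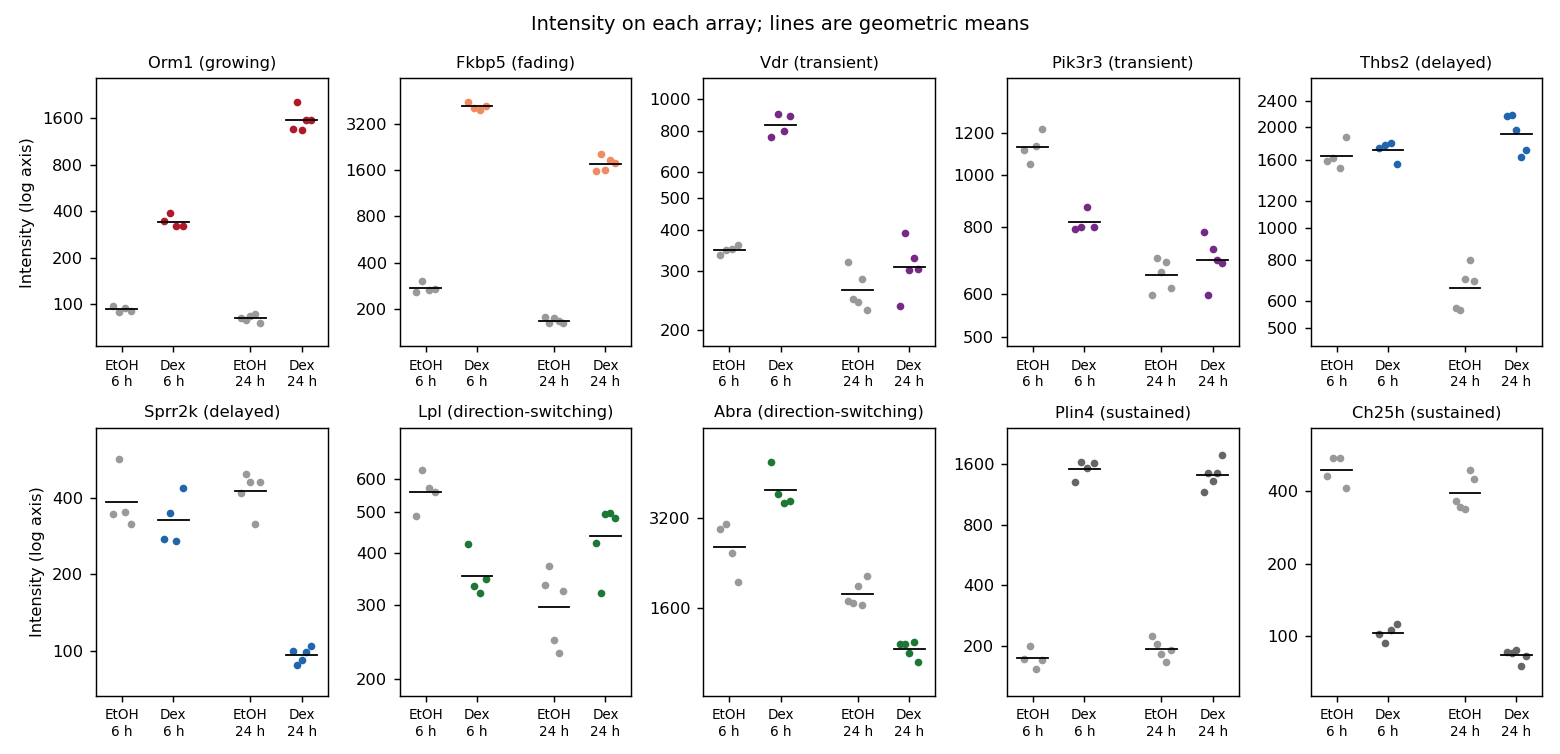
Intensity (log axis) of 10 genes on each of the 18 arrays, with ethanol arrays in grey, Dex arrays in colour and lines at the geometric means. The Dex arrays of Orm1 read 318 to 386 at 6 h and 1341 to 2047 at 24 h, Vdr is apart at 6 h alone, Thbs2 and Sprr2k at 24 h alone, Lpl and Abra change sides, and Plin4 and Ch25h keep theirs.

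The delayed class was the largest of those with a called change, with 120 genes, 53 rises and 67 falls at 24 h, and a median size of 0.16 at 6 h and 0.50 at 24 h on the log2 scale. Thbs2, the matrix protein thrombospondin 2, read 1589.7, 1617, 1508 and 1875 with ethanol and 1733, 1774, 1796 and 1558 with Dex at 6 h. At 24 h Thbs2 read 573, 565, 698, 798 and 689.7 with ethanol and 2162, 2187, 1960.4, 1626 and 1708 with Dex. The groups overlapped at 6 h and were over 2-fold apart at 24 h, with effects of 0.06 (SE 0.12) and 1.54 (SE 0.10) and limma adjusted p = 9.09e-06 for the change. Asb2, the substrate receptor of a ubiquitin ligase expressed in muscle, read 590.3, 814, 594 and 1052 with ethanol and 896, 804, 758 and 596 with Dex at 6 h. The later arrays of Asb2 read 429, 435, 482, 462 and 486 with ethanol and 1278, 1231, 1169.5, 1139 and 1159.5 with Dex. Asb2 thus had overlapping groups at 6 h and separate groups at 24 h, and its effect went from 0.03 to 1.38 (limma adjusted p = 0.000364).

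Saa3, a serum amyloid A acute-phase gene, went from 0.14 to 1.60 (SE 0.19), with Dex arrays at 24 h that spread from 175 to 499. All its 6 h arrays read under 1.5 times the array median, as did those of the uncharacterised gene 4732465J04Rik, which went from -0.07 to 1.15. In all, both 6 h groups lay under that level in 18 of the 120 delayed genes. Mybpc1, a myosin-binding protein of the sarcomere, had 0.20 and 0.94, and Casq2, a calcium store protein of muscle, -0.15 and 0.48. Their calls were lost in 6 and 8 of 18 fits that left out 1 array, with adjusted p up to 0.0562 and 0.0705. Heyl, a Notch target, went from -0.24 to 0.42 (limma adjusted p = 0.00216), and its groups did not overlap at either time.

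The delayed fall with the largest change was in Sprr2k, of the small proline-rich protein family. It read 346, 568, 352 and 315 with ethanol and 275, 349, 269 and 437 with Dex at 6 h. Its 24 h arrays read 416, 494, 459.9, 316 and 460.4 with ethanol and 99.8, 88.1, 92.1, 99.3 and 105 with Dex, near the array median. The overlapping groups at 6 h became separate at 24 h, and the effect went from -0.24 to -2.13 (change -1.90, SE 0.22, limma adjusted p = 3.05e-05). Rdh5, a retinol dehydrogenase, read 2373, 2564, 1502 and 1546 with ethanol and 2434, 2913, 2489 and 2503 with Dex at 6 h. For Rdh5 at 24 h the values were 3316, 2894, 2891, 2650.0 and 3322 with ethanol and 1205, 1478, 1334, 1467 and 1307 with Dex. Dex was below ethanol on every array at 24 h alone, and the effect went from 0.41 (adjusted p = 0.107) to -1.15 (limma adjusted p of the change = 3.83e-05). Serpinb9g, an intracellular serine protease inhibitor with close copies in the genome, went from 0.31 to -1.19 (limma adjusted p = 5.03e-06). Its groups were apart at both times, with Dex higher at 6 h and lower at 24 h, though the 6 h effect was not called (limma adjusted p = 0.137).

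**Figure D3:**
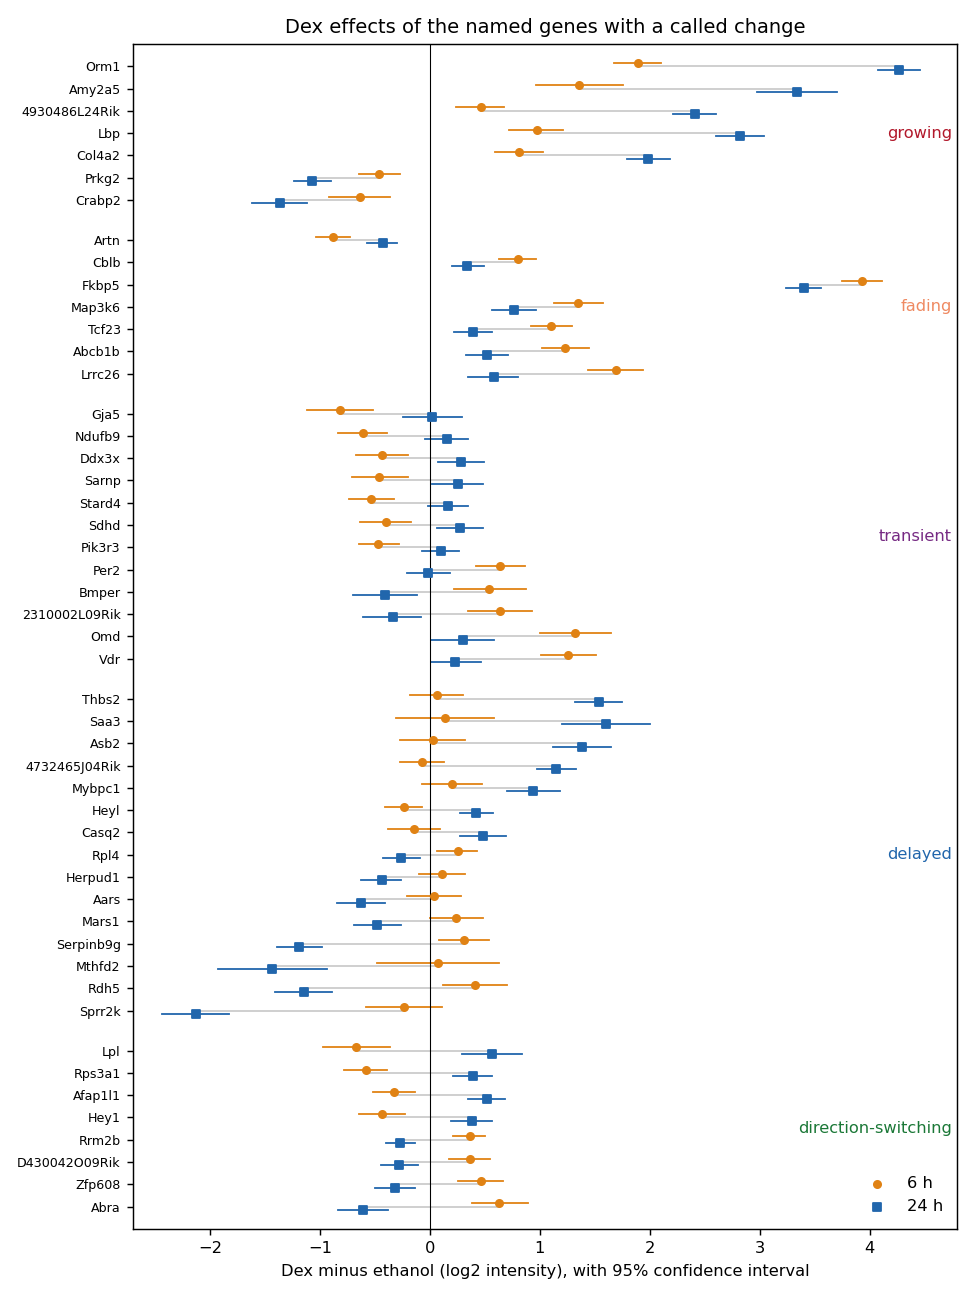
Dex effects (log2 intensity, Dex minus ethanol) of the 49 named genes with a called change, at 6 h (orange circles) and at 24 h (blue squares), with 95% confidence intervals from the model. The growing rises reach 4.27 in Orm1 at 24 h, and the intervals of the direction-switching genes lie on opposite sides of 0.

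Genes of the amino acid response, a program that the transcription factor ATF4 switches on when amino acids or the endoplasmic reticulum are under stress, were measured with 31 members. Of these, 0 were called lower at 6 h (1.98% of all genes) and 21 at 24 h (4.42%), and 3 were called higher at each time (2.48% and 4.47%), which were Ddit4, Vldlr and Cebpb. The median effect was -0.01 at 6 h and -0.48 at 24 h, against 0.00 at both times over all genes. The change was positive in 2 of 31 members, against 48.9% of all genes, and it was called in 4, all downward (0.619% of all genes). These were Mthfd2, an enzyme of the mitochondrial folate cycle, and the transfer RNA synthetase genes Aars, Mars1 and Wars.

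Mthfd2 read 4049, 4475, 4132 and 4512 with ethanol and 4191, 4706, 4448 and 4736 with Dex at 6 h. At 24 h Mthfd2 read 7701, 4845, 2898, 4028 and 2692 with ethanol and 802, 1895, 1440.2, 1487 and 2472 with Dex. The 6 h arrays are within a narrow band, while at 24 h ethanol replicate 1 is the highest array and Dex replicate 1 the lowest, and the groups do not overlap. The effect went from 0.07 (SE 0.27) to -1.44 (SE 0.24), with limma adjusted p = 0.0372 for the change, a call lost in 5 of 18 fits that left out 1 array (adjusted p up to 0.0610). Aars, the alanyl synthetase, went from 0.04 to -0.63 (limma adjusted p = 0.0358, lost in 4 of 18 such fits with adjusted p up to 0.0544). Mars1, the methionyl synthetase, went from 0.24 to -0.48 (limma adjusted p = 0.0234).

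The mean log2 level of the 31 members, taken relative to the ethanol mean of its time, lay between -0.06 and 0.04 on the ethanol arrays and between 0.03 and 0.10 on the Dex arrays at 6 h. At 24 h the ethanol arrays gave 0.39, 0.13, -0.25, -0.06 and -0.21 and the Dex arrays -0.85, -0.41, -0.48, -0.48 and -0.22. The ethanol and Dex arrays of 24 h overlap slightly, and replicate 1 is the extreme array of both groups. Without both arrays numbered 1 at 24 h the median change was -0.32 in place of -0.54, 3 members had a called change and 4 of 31 were positive. When the probes of each gene were averaged no member had a called change, with a median of -0.33. Without Dex replicate 2 at 6 h or without ethanol replicate 2 at 24 h 1 member was called, and without Dex replicate 3 at 6 h or Dex replicate 4 at 24 h 2 members were. Without Dex replicate 5 at 24 h 6 members were, and over all alternatives the count ran from 0 to 10.

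The window of 300 bases around the start was also searched for TGATGNAA, the composite element that ATF4 binds with a C/EBP partner, on both strands. It was found in 3.76% of measured genes with a window and in 9 of the 27 list members with one (33.3%), which were Chac1, Trib3, Slc7a11, Asns, Gars, Fgf21, Nupr1, Aars and Vldlr. The list was assembled from known ATF4 targets, so this share describes how the list was made. In the delayed class as a whole 6 of 94 genes (6.38%) held it, among them Herpud1, a membrane protein of endoplasmic reticulum degradation, which went from 0.11 to -0.44. The change of Herpud1 (limma adjusted p = 0.0456) lost its call in 10 of 18 fits that left out 1 array, with adjusted p up to 0.0609. A match, in capitals, is shown for the delayed genes Aars and Herpud1 on the plus strand. It is also shown for Asns, the asparagine synthetase gene (-0.10 at 6 h, -1.13 at 24 h, change not called), on the minus strand. Aars held another match farther downstream, TTTCATCA, which is not shown. Matches that read TTGCATCA hold the element on the opposite strand. Aars lies at chr8:111033710-111033757, Herpud1 at chr8:94386297-94386344 and Asns at chr6:7693205-7693252, all in build GRCm38.p6.
Aars: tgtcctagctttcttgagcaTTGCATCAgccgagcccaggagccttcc
Herpud1: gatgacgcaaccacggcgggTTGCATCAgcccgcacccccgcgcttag
Asns: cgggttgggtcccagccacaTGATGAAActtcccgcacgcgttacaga

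Direction-switching effects were called in 10 genes, 6 of them lower with Dex at 6 h and higher at 24 h. Lpl, the lipoprotein lipase that frees fatty acids from circulating fat, read 489, 629, 570.4 and 559.6 with ethanol and 419, 334, 321 and 346 with Dex at 6 h. At 24 h it read 335, 372, 248, 230.0 and 324 with ethanol and 422, 321, 495, 498 and 483 with Dex. At 6 h every Dex array was below the ethanol arrays, and at 24 h 4 of 5 Dex arrays were above all ethanol arrays. The effect went from -0.67 (SE 0.15, limma adjusted p = 0.00808) to 0.56 (SE 0.13, adjusted p = 0.00824), and the change was 1.23 (95% interval 0.81 to 1.64, adjusted p = 0.00194). Hey1, a transcriptional repressor induced by Notch, read 548, 562, 502 and 576 with ethanol and 364, 424, 418 and 408 with Dex at 6 h. Its later arrays read 426, 521, 472, 477 and 431 with ethanol and 694, 490.0, 618, 578 and 651 with Dex. The groups of Hey1 were apart at 6 h, and at 24 h Dex replicate 2 lay inside the ethanol range, with effects of -0.44 and 0.38 (limma adjusted p of the change = 0.00212).

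Abra, an actin-binding protein of striated muscle, had the largest switch from a rise to a fall. It read 2934, 3052, 2447 and 1958 with ethanol and 4930.5, 3845, 3585 and 3659 with Dex at 6 h. The 24 h arrays of Abra read 1696, 1669.8, 1899, 1638 and 2054 with ethanol and 1212, 1216, 1137, 1232 and 1059 with Dex. The Dex arrays were all above the ethanol arrays at 6 h and all below them at 24 h, with effects of 0.63 (SE 0.12) and -0.61 (SE 0.11) and limma adjusted p = 0.000174 for the change. Rrm2b, a subunit of ribonucleotide reductase induced by p53, read 1058, 989.5, 937 and 1016 with ethanol and 1253, 1348, 1319 and 1209 with Dex at 6 h. At 24 h Rrm2b read 951, 929, 946, 969 and 960.1 with ethanol and 782, 810.4, 794, 786 and 767 with Dex. Its groups were apart at both times, in opposite order, with effects of 0.36 and -0.27 (limma adjusted p of the change = 0.000753).

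Of the remaining switches, Zfp608 (0.46 to -0.32) and D430042O09Rik (0.36 to -0.28) went from a rise to a fall. Another Zfp608 probe that read at least 1.5 times the array median showed no switch, with -0.05 at 6 h and 0.00 at 24 h (limma adjusted p of the change = 0.887). Afap1l1, an actin filament-associated protein gene, went from -0.33 to 0.52, with 24 h arrays under 1.5 times the array median as group means. Rps3a1, a ribosomal protein gene, went from -0.58 to 0.39, and Rnu6, a spliceosomal RNA gene named to complete the class, from -0.46 to 0.33. Both have many near-identical copies in the genome, so the source of their signal is uncertain. C1qtnf3, also named to complete the class, went from -0.36 to 0.32. Without ethanol replicate 1, 2 or 4 at 6 h the class held 21, 17 and 16 genes, and without Dex replicate 1 or 4 at 6 h it held 16 and 19.

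Sustained effects made up 322 of the 427 genes that were called at both times with the same sign, 200 rises and 122 falls, with a median size of 0.52 at 6 h and 0.49 at 24 h. Plin4, a coat protein of lipid droplets, read 174, 201, 154 and 171 with ethanol and 1308, 1627, 1520.2 and 1616 with Dex at 6 h. At 24 h Plin4 read 224, 204, 182, 168 and 192 with ethanol and 1164, 1449.7, 1316, 1439.8 and 1776 with Dex. Each Dex array was several times as bright as any ethanol array of its time, and the change was -0.24 (95% interval -0.57 to 0.08). Ch25h, which makes 25-hydroxycholesterol, read 466, 550.0, 554 and 415 with ethanol and 102, 93.3, 105 and 112 with Dex at 6 h. Its readings at 24 h were 364, 344, 337, 491 and 452 with ethanol and 85.2, 84.8, 87.5, 74.5 and 82.6 with Dex. The Dex arrays of Ch25h were near the array median at both times, and the effect was -2.26 and -2.25 (95% interval of the change -0.29 to 0.32).

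Other sustained rises were in Slc10a6 (2.18 and 1.87), Ctla2b, a cysteine protease inhibitor gene (1.88 and 1.79), and Errfi1, an inhibitor of the EGF receptor (1.78 and 1.76). Slc10a6 met the rule for sustained genes, but the confidence interval of its change (-0.31) was -0.55 to -0.07, wholly toward a smaller later effect. Its other probe went from 1.37 to 0.79, a change that was not called (limma adjusted p = 0.0577). The sustained falls included the chemokine Cxcl12 (-1.68 and -1.58), the metalloproteinase inhibitor Timp3 (-1.31 and -1.15) and the adhesion molecule Vcam1 (-1.07 and -1.32). Pik3r1, a PI3K regulatory subunit, was sustained at 0.52 and 0.72, while the related Pik3r3 was, by its brightest probe, transient in the other direction. In each of these sustained genes the groups were apart at both times.

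Of 26 measured classical glucocorticoid receptor targets, 16 were called higher at 6 h (2.48% of all genes) and 1 lower (1.98%), and at 24 h 18 were called higher (4.47%) and 2 lower (4.42%). The median effect was 0.63 and 0.57. Of the members, 9 were sustained (322 of 19057 over all genes), and the change was called in 1 (1.22% of all genes), Fkbp5. Tsc22d3, the gene of the anti-inflammatory leucine zipper GILZ, went from 1.69 to 1.43 with a change of -0.26 (95% interval -0.61 to 0.09), too wide to call sustained. Its other 2 probes had larger changes that were not called, from 2.14 to 1.64 and from 1.40 to 0.72 (limma adjusted p of the change = 0.194 and 0.0547). Klf15, a transcription factor gene, and Nr3c1, the receptor itself, read near the array median in every group and their effects were not called at either time. Changes were -0.01 for Klf15 and -0.12 for Nr3c1.

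The atrophy ubiquitin ligases had unresolved changes in opposite directions. Fbxo32 (atrogin-1) read 387, 401, 433 and 393 with ethanol and 666, 589, 578 and 619 with Dex at 6 h. At 24 h Fbxo32 read 579.7, 494, 466, 474 and 434 with ethanol and 865, 1219, 1000.2, 1109.9 and 1226 with Dex. Dex was higher on every array at both times, with effects of 0.60 and 1.14 and a change of 0.54 (95% interval 0.24 to 0.84, limma adjusted p = 0.0647). Leaving out ethanol replicate 1 or Dex replicate 1, at either time, gave an adjusted p under the threshold (0.0137 to 0.0486). Over all 27 alternatives the change of Fbxo32 stayed uncalled in 18 and was called upward in the others. Trim63 (MuRF1) had 0.93 at 6 h and 0.47 at 24 h, both called, with a change of -0.46 (95% interval -0.84 to -0.08, limma adjusted p = 0.263). Of 23 atrophy and FoxO genes the change was called downward in 1 (0.619% of all genes), Cblb, and upward in 0 (0.598%). A single call in a list of this size is near that share. Mstn, the growth inhibitor myostatin, read below the array median in every group and was not called.

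Of the lists, the acute-phase and metal-binding genes had the largest share of called changes. Of 17 measured members, 6 had a called change, all upward (0.598% of all genes), and 12 of 17 changes were positive, against 48.9% of all genes. The 6 were Orm1, Lbp and Serpina3n, which grew, and Saa3, Orm2 (0.42 to 1.41) and the haemoglobin-binding haptoglobin gene Hp (-0.07 to 0.77), which were delayed. Cp, the copper carrier ceruloplasmin (0.71 and 0.72), and the interleukin 6 receptor gene Il6ra (1.03 and 0.92) were sustained, and the metallothionein gene Mt2 had 3.37 and 2.91 with no called change. The list's mean relative to ethanol was 0.73 to 0.84 on the Dex arrays at 6 h and 1.18 to 1.44 at 24 h, and no Dex array of 24 h reached down to those of 6 h. At 24 h 11 members were called higher (4.47% of all genes) and 1 lower (4.42%), and the lowest change in the list was -0.72, not called. Over the alternatives 5 to 7 members had a called change, and each count of 7 held 6 upward and 1 downward.

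Of 17 measured cholesterol synthesis genes, 4 were called lower at 6 h (1.98% of all genes) and 0 higher (2.48%). At 24 h 0 were called lower (4.42%) and 1 higher (4.47%), which was the mevalonate kinase gene Mvk (-0.08 to 0.21). The median effect over the list was -0.31 at 6 h and -0.03 at 24 h. The members called at 6 h were Insig1, a sterol-regulated brake on the pathway (-0.93 to -0.27), the demethylase gene Cyp51 (-0.53 to -0.27), Fdps (-0.38 to -0.04) and Stard4. The change was positive in 17 of 17 members, against 48.9% of all genes, and it was called in 1, Stard4. Without ethanol replicate 1 or Dex replicate 4 at 6 h it was called in 3, and over all alternatives in 1 to 5. These genes are co-regulated and measured on the same arrays, so 17 members are not 17 observations. The list's mean relative to ethanol at 6 h was -0.19 to 0.16 with ethanol and -0.41 to -0.22 with Dex, without overlap. At 24 h it was -0.04 to 0.02 with ethanol and -0.05 to 0.03 with Dex.

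Most oxidative phosphorylation genes were called at neither time. Of 33 members, 4 were called lower at 6 h (1.98% of all genes) and 0 higher (2.48%), and at 24 h 1 was called lower (4.42%) and 4 higher (4.47%), with median effects of -0.03 and 0.08. The change was positive in 24 of 33 (48.9% of all genes) and called upward in 4 (0.598%), Ndufb9, Sdhd, Atp5o (-0.16 to 0.29) and Atp5a1 (-0.32 to 0.21), the last 2 being subunits of ATP synthase. Over the alternatives 1 to 6 members were called. The list's mean relative to ethanol at 6 h was -0.05 to 0.04 on the ethanol arrays and -0.17 to -0.01 on the Dex arrays, which overlap. At 24 h it was -0.07 to 0.06 with ethanol and 0.07 to 0.12 with Dex, without overlap.

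**Figure D4:**
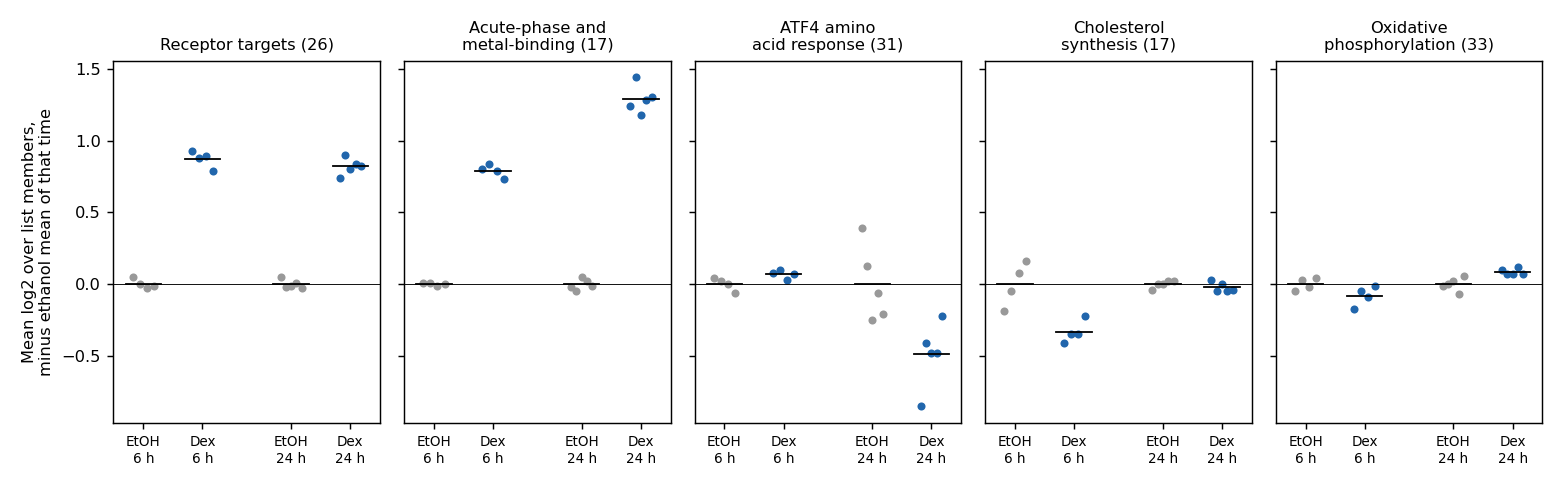
Mean log2 intensity over the measured members of 5 gene lists on each array, minus the ethanol mean of its time (y axis), with ethanol arrays in grey, Dex arrays in blue, lines at the group means and the number of members in brackets. The Dex arrays of the acute-phase list rise from at most 0.84 at 6 h to at least 1.18 at 24 h, those of the ATF4 list reach down to -0.85 at 24 h, and those of cholesterol synthesis lie below 0 at 6 h alone.

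Matrix genes with a called change went in both directions. Of 40 members, the change was called upward in 4 (0.598% of all genes) and downward in 3 (0.619%), with median effects of 0.03 at 6 h and -0.11 at 24 h. Beside Thbs2, Col4a1 and Col4a2, the laminin gene Lamb1 went up (-0.21 to 0.40), while the laminin genes Lama2 (0.40 and 0.39) and Lamc1 (0.68 and 0.72) were sustained. Downward went the small proteoglycan gene Lum (0.12 to -1.09), the inhibitor gene Timp1 (-0.24 to -0.78) and Adamts1. Over the alternatives 3 to 12 members had a called change, with 12 when ethanol replicate 1 at 6 h was left out. Of 26 Notch and BMP genes the change was called upward in 2 (0.598% of all genes), Hey1 and Heyl, and downward in 0 (0.619%). Over this list the median change was 0.02, and 14 of 26 changes were positive, against 48.9% of all genes. At 6 h 0 members were called higher (2.48%) and 4 lower (1.98%), and at 24 h 2 higher (4.47%) and 4 lower (4.42%). Hes1 and Id2 were sustained. Notch3 had -0.29 and 0.33 with neither effect and no change called, and it was chosen after its values were seen. Of 17 clock genes 1 had a called change (1.22% of all genes), Per2.

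The remaining lists held few called changes, against 1.22% of all genes, and a single call in a list of this size is near that share. Of 30 insulin, PI3K and mTOR genes the change was called in 1, Pik3r3, of 27 fatty acid and lipid droplet genes in 1, Lpl, and of 21 endoplasmic reticulum chaperone genes in 1, Herpud1. Among 39 sarcomere genes it was called in 2, Mybpc1 and Casq2, and among 24 cytosolic ribosomal protein genes in 1, Rpl4 (0.25 to -0.26). Rpl4 counts as delayed by the calls (limma adjusted p = 0.148 at 6 h and 0.0481 at 24 h). Its groups were nevertheless apart at 6 h, with Dex higher, and overlapped at 24 h. The call of its change was lost without Dex replicate 2 at 6 h, ethanol replicate 1 at 24 h or Dex replicate 4 at 24 h, with adjusted p up to 0.0593. No change was called among 31 chemokine and NF-kB genes, 27 immediate-early genes, 22 myogenic regulators, 33 cell cycle genes and 24 interferon-stimulated genes. In the chemokine list 5 members were called lower at 6 h (1.98% of all genes) and 9 at 24 h (4.42%), and 1 was called higher at each time, with median effects of -0.08 and -0.09.

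Probes of the same gene gave a limited check. Of the 49 named genes with a called change, 24 had more than 1 probe, and in 21 of these no other probe had a called change. Most other probes were dim. Of the 16 that read at least 1.5 times the array median, 15 had a change of the same sign as the brightest probe, 3 of them called. The exception was a probe of Zfp608, and none of the 39 other probes was called in the opposite direction. A fit to the mean of all probes of each gene, in place of the brightest, ended the call of the change in 23 of the 49. These were 2310002L09Rik, Aars, Afap1l1, Artn, Bmper, Casq2, Cblb, Crabp2, D430042O09Rik, Gja5, Herpud1, Map3k6, Mars1, Mthfd2, Mybpc1, Omd, Pik3r3, Rpl4, Rrm2b, Saa3, Sarnp, Sdhd and Zfp608. Among them Bmper, Casq2, Crabp2, Omd, Saa3 and Sdhd have only 1 probe. Averaging left their own values as they were, and only the parts of the fit shared over all genes differed, so their loss is no check by other probes. The change kept its sign in each of the 49, which was fixed in advance for genes with 1 probe. Quantile normalization ended the call in Artn, Cblb, Fkbp5, Herpud1 and Map3k6, and normexp in Casq2, Cblb, Crabp2, Herpud1 and Rpl4. Array weights ended it in Casq2, Crabp2, Herpud1 and Rpl4, and leaving out both arrays numbered 1 at 24 h in these 4 and Mybpc1.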

How the data were processed

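Total RNA of 18 myotube samples was measured on Illumina mouse WG-6 arrays, and each sample was grouped by its own title (4 ethanol and 4 Dex at 6 h, 5 of each at 24 h). Although the design text mentions triplicates, samples are numbered up to 4 or 5, and all were used. The deposited values are linear probe intensities that the authors made with lumi (an R package for Illumina arrays), as the submitters' processing notes say. The sources used here do not give its version, background correction or normalization. Scanner files and detection p-values were not analysed here. Which probes exceeded background is therefore unknown, and fold changes of dim genes come out too small.

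The test was planned on log2 values, and the linear intensities were log2-transformed here with pseudocount 0. Of 45281 probes, 34885 had 1 gene symbol, 18 several and 10378 none. Symbols were updated by gene identifier to the RefSeq annotation of GRCm38.p6 for 34807 probes and kept for 78. The brightest probe stood for each of 19057 genes. A mean per group was fitted with lmFit and eBayes (limma 3.58.1, R 4.3.3), with contrasts for the Dex effect at 6 h, at 24 h and their difference, adjusted by Benjamini-Hochberg over all genes. Deviations from the group means left 1 direction at 6 h (2.08e-05% of the spread) and 3 at 24 h (at most 0.000293%) nearly empty. These entered as 4 covariates, which change no fold change and leave 10 residual degrees of freedom. The fit was also run on simulated arrays with independent noise and the same empty directions. That setting shares the assumptions of the model, so it cannot show whether the p-values of the real arrays hold.

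Named genes were, per class and direction, up to 4 with the largest change (sustained: largest effect at both times) that reached 1.5 times the array median in a group, up to 2 called members per gene list, and a fixed set (Nr3c1, Mstn, Pik3r1, Fkbp5, Per1, Tsc22d3, Fbxo32, Trim63 and Klf15). The classes and lists were chosen with earlier results of these data known. Of 594 list entries 60 were not measured. Alternatives were a fit without covariates, the mean of probes, a filter on dim genes, quantile normalization, array weights, 1 weight per time, normexp, a replicate block, and leaving out arrays.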

Additional observations from a re-analysis of the deposited data

Results flagged for a closer look

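The Dex effect differed between 6 h and 24 h in 232 genes by the test of the difference itself (limma, adjusted p under 0.05). Among the genes named above with this difference, its log2 size, 24 h minus 6 h, was as follows. In the growing class it was 2.38 for Orm1, 1.97 for Amy2a5, 1.95 for 4930486L24Rik, 1.85 for Lbp, 1.17 for Col4a2, -0.72 for Crabp2 and -0.61 for Prkg2. In the fading class it was -1.11 for Lrrc26, -0.71 for Tcf23 and for Abcb1b, -0.60 for Map3k6, -0.53 for Fkbp5, -0.45 for Cblb and 0.45 for Artn. Among the transient genes it was -1.03 for Omd and for Vdr, -0.98 for 2310002L09Rik, -0.95 for Bmper, -0.66 for Per2, 0.84 for Gja5, 0.77 for Ndufb9, 0.72 for Ddx3x, 0.71 for Sarnp, 0.70 for Stard4, 0.67 for Sdhd and 0.56 for Pik3r3. Among the delayed genes it was 1.48 for Thbs2, 1.46 for Saa3, 1.35 for Asb2, 1.22 for 4732465J04Rik, 0.74 for Mybpc1, 0.67 for Heyl and 0.63 for Casq2. The delayed falls had -1.90 for Sprr2k, -1.56 for Rdh5, -1.51 for Mthfd2, -1.49 for Serpinb9g, -0.72 for Mars1, -0.67 for Aars, -0.55 for Herpud1 and -0.50 for Rpl4. The direction-switching genes had 1.23 for Lpl, 0.97 for Rps3a1, 0.84 for Afap1l1, 0.81 for Hey1, -1.24 for Abra, -0.78 for Zfp608, -0.64 for D430042O09Rik and -0.63 for Rrm2b.

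Single arrays stood apart from the rest of their group by Dixon's gap test in 15 of 260 gene and group sets, where chance gives about 5%, or 13. At 6 h with ethanol these were Sprr2k in replicate 2 (568.2), Serpinb9g in replicate 4 (495.2), Errfi1 in replicate 3 (2046) and Vcam1 in replicate 4 (954.0). At 6 h with Dex they were Ndufb9 in replicate 4 (1072.8), Rdh5 in replicate 2 (2913.4), Errfi1 in replicate 4 (6932.2) and Pik3r3 in replicate 3 (871.8). At 24 h with ethanol they were Vcam1 in replicate 3 (934.9), and Heyl and Mstn in replicate 1 (98.2 and 70.1). At 24 h with Dex they were 4732465J04Rik and Sdhd in replicate 1 (228.1 and 323.7), Cblb in replicate 2 (166.4) and Slc10a6 in replicate 3 (223.8).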

How the results depend on the processing

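Of the 49 named genes with a called change, 25 kept their call in all 27 alternatives and none changed sign, while 23 lost it with the mean of probes, 5 each with quantile normalization, with normexp and without both arrays numbered 1 at 24 h, 4 with array weights and 1 with 1 weight per time. The call counts moved by over 1.5 times in the settings given next, and in the fits that left out 1 array only where stated. Without the direction covariates, a fit that counts 14 residual degrees of freedom, 1726 genes were called at 6 h, 3142 at 24 h and 942 for the change, all 232 among them, with 38 growing, 28 fading, 257 transient, 474 delayed, 63 direction-switching and 591 sustained genes. The mean of probes gave 115 called changes (98 of the 232), with 11 growing, 30 transient, 59 delayed and 5 direction-switching genes. Quantile normalization gave 4 fading genes and array weights 16. Leaving out each array in turn gave 192 to 372 called changes, 704 to 1049 calls at 6 h and 1409 to 2105 at 24 h, with 17 to 26 growing, 7 to 18 fading, 47 to 104 transient, 87 to 179 delayed, 8 to 21 direction-switching and 285 to 362 sustained genes. Among these counts, only those of called changes and of fading, transient and direction-switching genes moved by over 1.5 times in any such fit. Each fit that left out arrays found its nearly empty directions anew, so its covariates can differ from those of the main fit. Leaving out any 6 h array gave 1882 to 2105 calls at 24 h, against 1694, with no 24 h array removed. The cause of these movements was not tested. With no detection p-values, depth here means signal over background, and dim genes limit the classes as given in the report.

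The replicate numbers do not pair the samples by the rule of a positive correlation between deviations from the group means. This correlation between same-numbered ethanol and Dex arrays was 0.256, 0.150, -0.0797 and 0.0548 at 6 h and -0.928, -0.756, -0.729, -0.327 and -0.190 at 24 h. Same-numbered arrays of 24 h thus deviated in opposite directions and are not shown to be independent, as each p-value of the 24 h effect and of the change assumes. Whether the arrays were adjusted together before deposit is not known, and its part in these p-values was not tested. With the replicate number as a block, in place of the direction covariates, 532 changes were called, all 232 among them, with 24 fading, 148 transient, 264 delayed and 32 direction-switching genes.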

Other observations

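Further genes of the classes are given here as values, chosen after they were seen. Among the delayed rises were the coagulation factor gene F7 (0.20 at 6 h and 1.13 at 24 h), the second kininogen gene Kng2 (0.21 and 1.05), the chymotrypsinogen gene Ctrb1 (0.17 and 1.08), the protease inhibitor cystatin C gene Cst3 (-0.03 and 0.77) and Mgp, an inhibitor of calcification (-0.02 and 0.68). The smooth muscle contractile genes Actg2 and Myl9 were also delayed rises, from -0.28 to 0.89 and from -0.24 to 0.58. Delayed falls included a further synthetase gene, Lars (0.22 to -0.45), the caveolar coat protein gene Cav1 (0.34 to -0.56), the aldehyde dehydrogenase gene Aldh3a1 (0.28 to -1.02) and Serpinb9f (0.20 to -0.97), a close copy of Serpinb9g.

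Of the transient rises, Nt5e, an ectoenzyme that makes adenosine, went from 1.10 to 0.32, the kinase gene Sik1 from 0.75 to 0.25, the growth factor gene Pdgfc from 0.69 to 0.18 and the neurotrophin gene Bdnf from 0.48 to -0.25. Transient falls included the thioredoxin gene Txn1 (-0.56 to -0.01), the ferritin light chain gene Ftl1 (-0.36 to 0.21), the transcription factor gene Sox9 (-0.64 to -0.03) and Ndufb4, another subunit of complex I (-0.39 to 0.24). Txnip, which encodes the inhibitor of thioredoxin, had 0.80 at 6 h and 0.01 at 24 h, but its change of -0.79 was not called (limma adjusted p = 0.149).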
